A study of Mus musculus with 33 samples.

Results

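Interscapular brown fat of mice fed a high-fat diet was compared between week 8 and week 2 of feeding, with week 4 as the midpoint. The comparison used 9 of the 33 arrays of the series, 3 per week, chosen by the diet and the week given for each sample. The animals were C57BL/6J mice, whose age is given as 7 weeks for every sample, housed singly at 24 °C with 12 hours of light. The high-fat diet was the AIN-76 semi-purified diet made with 20% fat and 1% cholesterol, so that 39.2% of its calories came from fat. The normal diet, the AIN-76 diet itself, supplied 6 further arrays at weeks 2 and 8, used to see how far the high-fat values differ from those of mice kept on it for the same time. All groups are wild type, and no transgene or drug is named. Whether the 3 samples of a group came from separate mice is not stated. The p-values then describe only how far the samples of a group scatter, pooled over the 11 groups of the series. That scatter may be technical. Within 1 diet, weeks of feeding and the age of the mice cannot be told apart.

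Brown fat burns lipid to make heat. Its mitochondria carry uncoupling protein 1 (Ucp1), which lets protons return across the inner membrane without making ATP, and the tissue draws fatty acids from small lipid droplets and from the blood. White fat stores lipid in 1 large droplet and secretes hormones such as leptin. Brown fat also holds capillary endothelium, fibroblasts and preadipocytes that lay down collagen, macrophages, nerve endings and, at its edge, skeletal muscle. In such bulk tissue, fewer cells of a type and less RNA per cell cannot be told apart.

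Ucp1, the defining gene of brown fat, was strongly detected on every array. It stood at log2 intensities of 15.63, 15.31 and 15.43 at week 2, at 15.31, 15.43 and 15.43 at week 4, and at 15.51, 15.29 and 15.37 at week 8. These values overlapped and lie near the top of the intensity range, where a change can be understated, which was not tested. The week 8 minus week 2 difference was -0.07 (95% interval -0.29 to 0.15, adjusted p = 0.717). After aligning only the array medians it was -0.37 and passed (adjusted p = 0.0275), where the median of all genes stood at -0.231. The week 8 high-fat arrays were dim. The 95th percentile of their deposited intensities was 1776, 1471 and 1214, against 1898 to 2083 at week 2, 1929 to 2213 at week 4 and 2103 to 2278 on the normal diet at week 8. Their medians, 148 to 165, were not low beside those of week 2, which were 139 to 153. The week 8 arrays also resembled each other less, with a correlation of 0.977 to 0.990 over the 9613 tested genes within the group, against 0.991 to 0.993 at week 2. The median gene had an SD of 0.231 log2 units among them, against 0.126 at week 2 and 0.110 at week 4. Every group but high-fat week 8 lay between 0.102 and 0.155. Each SE and p-value of the main fit rests on a spread pooled over all groups, so it can understate the scatter of the week 8 arrays. Dimness and week cannot be told apart, so each result below is read after quantile normalization, and the named genes that gained or lost a call under other scalings are given with the counts of calls. The number of arrays limits the precision of every value.

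**Figure D1:**
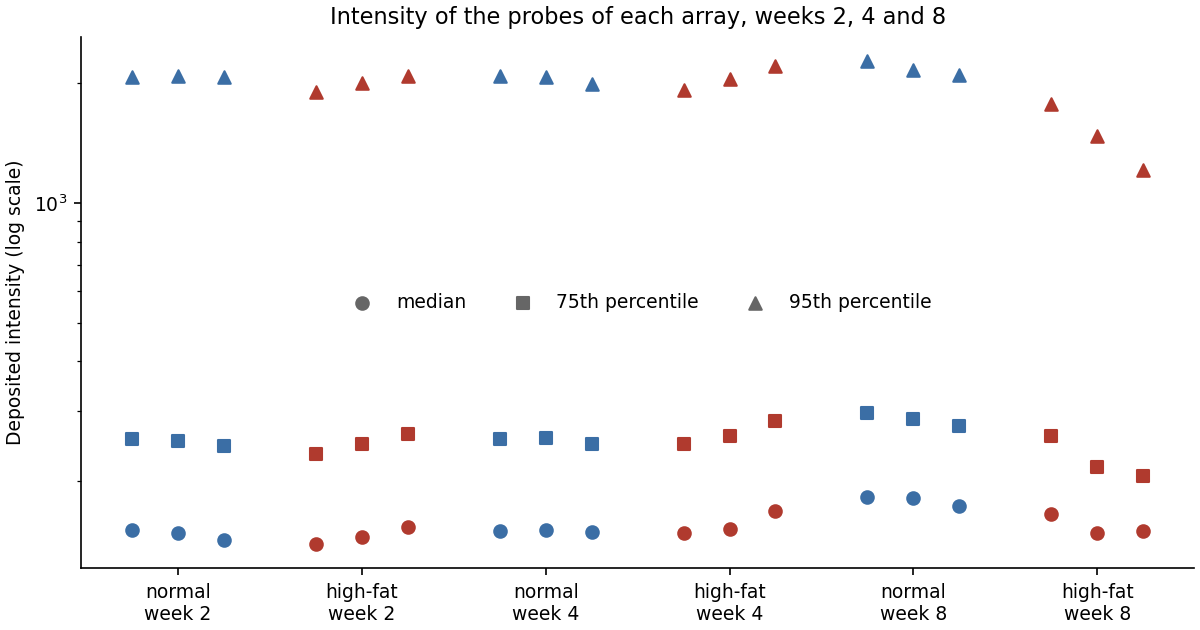
Median, 75th percentile and 95th percentile of the deposited probe intensities (log axis) on each array of weeks 2, 4 and 8 of both diets. The 95th percentiles of the 3 high-fat week 8 arrays lie at 1776, 1471 and 1214, below those of every other array shown, while their medians of 148 to 165 lie among the rest.

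Between weeks 2 and 8 many genes changed by small amounts and few by large ones. Of 9613 genes tested, 1063 (11.1%) passed a Benjamini-Hochberg adjusted p of 0.05 in limma, 534 higher (5.55%) and 529 lower (5.5%) at week 8. The median gene differed by 0.01 log2 units. The 3 arrays of week 8 and the 3 of week 2 did not overlap for 2126 genes (22.1%), of which 938 were called. A change of more than 1 log2 unit was found for 101 called genes, 18 higher and 83 lower. Of those 83, 55 were detected on no week 8 array, which leaves only a bound on their change, and 15 were detected on all 6 arrays. Of the 18, 8 were detected on all 6. Over all sizes, 695 called genes (65.4%) were detected on all 6 arrays, 378 of them higher and 317 lower.

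The count rests on how the spread and the scale were set. Fitted on the 6 arrays alone, 53 genes passed, and with quantile normalization over the 9 high-fat arrays alone 218 passed, 69 higher and 149 lower (31.7% higher, against 50.2% in the fit over all arrays). Aligning only the array medians put the median of all genes at -0.231 and gave 2679 calls, 94 higher and 2585 lower (3.5% higher). Without week 2 replicate 1, 2 or 3 the count was 680, 685 or 570. Of the 83 called genes that are named below for week 8 against week 2, 19 kept their call and sign on the 6 arrays alone. Of these, Bmx, Cdsn, Col1a1, Cyp2b23, Egr1, Elovl3, Fos, Igdcc4, Lctl, Lep, Mfsd2a, Nup210, Olfr873, Pde8b, Rfx4 and Sez6l kept both under every setting that tested them, and Cyp2b10, Dusp1 and Serpina1b did not. Of the genes that kept both, only Col1a1, Egr1, Elovl3, Lctl, Lep and Nup210 were still tested when detection on every compared array was required. Igdcc4 and Olfr873 also went untested when detection on 3 of the 9 high-fat arrays was required. Gamt, Hmgb2, Irs1, Slc6a13, Slc7a11 and Tyrobp, given below as plain differences, were likewise not detected on every array of weeks 2 and 8.

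Other scalings changed the calls of named genes. With aligned medians 65 of the 83 kept their call and sign. The others were all rises, namely Aldh1a7, Apold1, Car3, Ccnd1, Ddit3, Dnajb1, Dusp1, Ebf2, Gamt, Gstm2, Insig1, Npr3, Ogdh, Rpl3, Ryr2, Serpina1b, Tubb5 and Zfp36, and Ucp1, Cidea, Col1a2, Fasn and C1qa gained a call as lower. With aligned 75th percentiles 68 kept theirs, and Aldh1a7, Car3, Ccnd1, Cd34, Gstm2, Insig1, Irs1, Ndufa1, Npr3, Ogdh, Rpl3, Serpina1b, Tubb5, Tyrobp and Zbtb16 did not, while Fasn gained a call as lower. With cyclic loess 73 kept theirs, and Aldh1a7, Apold1, Ccnd1, Cd34, Irs1, Ndufa1, Npr3, Serpina1b, Tyrobp and Zbtb16 did not, while Scd1 gained one as higher. Quantile normalization over the 9 high-fat arrays alone kept 32. These were the 16 genes above with Alpl, Bckdhb, Ctsd, Cyp2e1, Fam131b, Hdc, Hlf, Hmox1, Insig1, Isg15, Ldhb, Mfap5, Olfr786, Pgd, Serpina1b and Sucnr1.

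**Figure D2:**
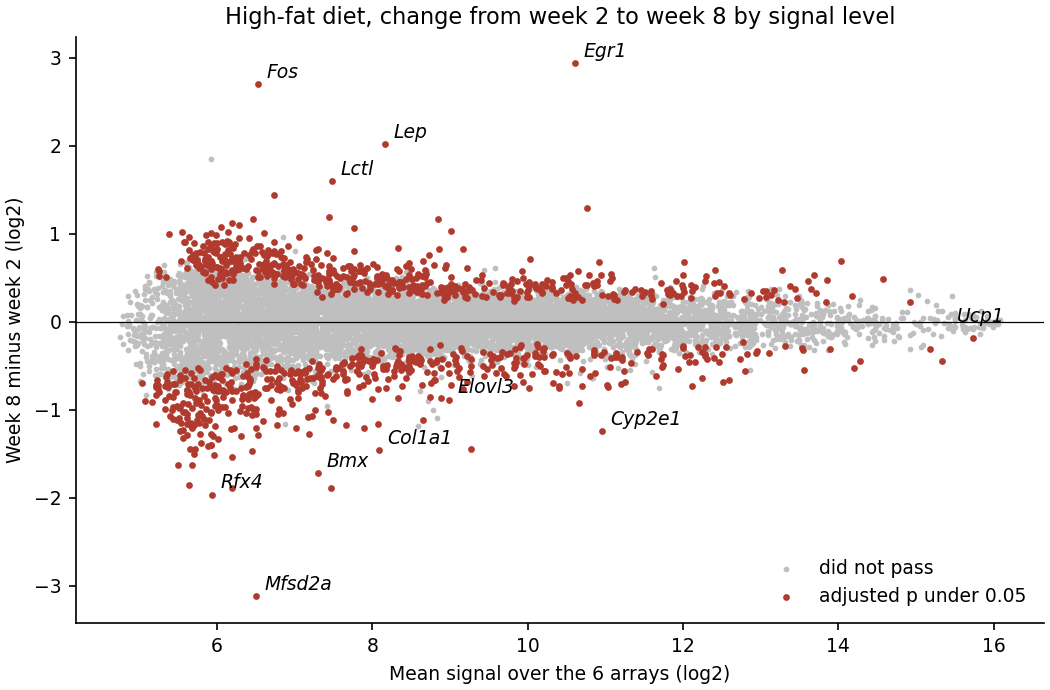
Week 8 minus week 2 difference (log2) of each of the 9613 genes against its mean log2 intensity over the 6 arrays, with the 1063 called genes in red. Most of the falls over 1 log2 unit sit at low intensity, where 55 of 83 were detected on no week 8 array.

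Leptin, the hormone by which fat signals its stores to the brain, was among the largest rises. Lep intensity was 7.87, 6.79 and 6.83 (log2) at week 2, 8.72, 8.21 and 9.22 at week 4, and 9.30, 9.44 and 8.81 at week 8. Every week 4 and week 8 array lay above every week 2 array, and weeks 4 and 8 overlapped. The week 8 level was 4.05-fold that of week 2 (log2 difference 2.02, SE 0.29, adjusted p = 7.66e-05). Of 11 measured genes of a white adipocyte list, 3 rose (5.55% of all genes did) and none fell, with a median difference of 0.18. The other two were Car3, carbonic anhydrase 3 of adipocytes, at 0.54 (adjusted p = 0.0292), and Npr3, the clearance receptor for natriuretic peptides, at 0.49 (adjusted p = 0.0400). Both were fragile. Car3 lost its call without week 2 replicate 2 or 3 or week 8 replicate 3 (adjusted p 0.0544 to 0.148), and Npr3 without any single array but week 8 replicate 3 (0.0520 to 0.198). The list's 3 rises became 1 without week 2 replicate 2 or 3, on the 6 arrays alone, with aligned medians or 75th percentiles and with quantile normalization over the 9 high-fat arrays, and its median was -0.09 after aligning the array medians, where all genes stood at -0.231. Adipoq, the adipokine adiponectin, differed by 0.03 (95% interval -0.14 to 0.20, adjusted p = 0.844), and after aligning the array medians or their 75th percentiles it differed by -0.26 and -0.03.

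Of 20 measured genes of brown fat thermogenesis, 1 rose and 1 fell, near the 11.1% of all genes called, with a median difference of 0.02. Elovl3, the fatty acid elongase that brown fat makes in the cold, was at 9.57, 9.36 and 9.37 at week 2, at 8.64, 8.53 and 8.50 at week 4 and at 8.74, 8.50 and 8.39 at week 8. The later arrays all lay below those of week 2, and weeks 4 and 8 overlapped. Its level fell 1.85-fold by week 8 (log2 difference -0.89, SE 0.16, adjusted p = 0.000976). Ebf2, a transcription factor that commits precursors to the brown lineage, rose by 0.53 log2 units (adjusted p = 0.0048), from 10.24 to 10.37 at week 2 to 10.61 to 10.99 at week 8. A second Ebf2 probe differed by 0.17, and the difference of 0.53 was 0.25 and not called after aligning the array medians (adjusted p = 0.211). Cidea, a lipid droplet protein abundant in brown fat, differed by -0.07 (adjusted p = 0.464; -0.36 with aligned medians, 0.00197), and Ppargc1a, the coactivator that drives mitochondrial genes, by 0.15 (adjusted p = 0.79). Fgf21, a hormone that thermogenic fat can release, was detected on no week 2 array and on all 3 of week 8, at a difference of 0.36 that did not pass (adjusted p = 0.212). After aligning only the array medians the list had 8 falls and no rise, with a median of -0.29 where all genes stood at -0.231.

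**Figure D3:**
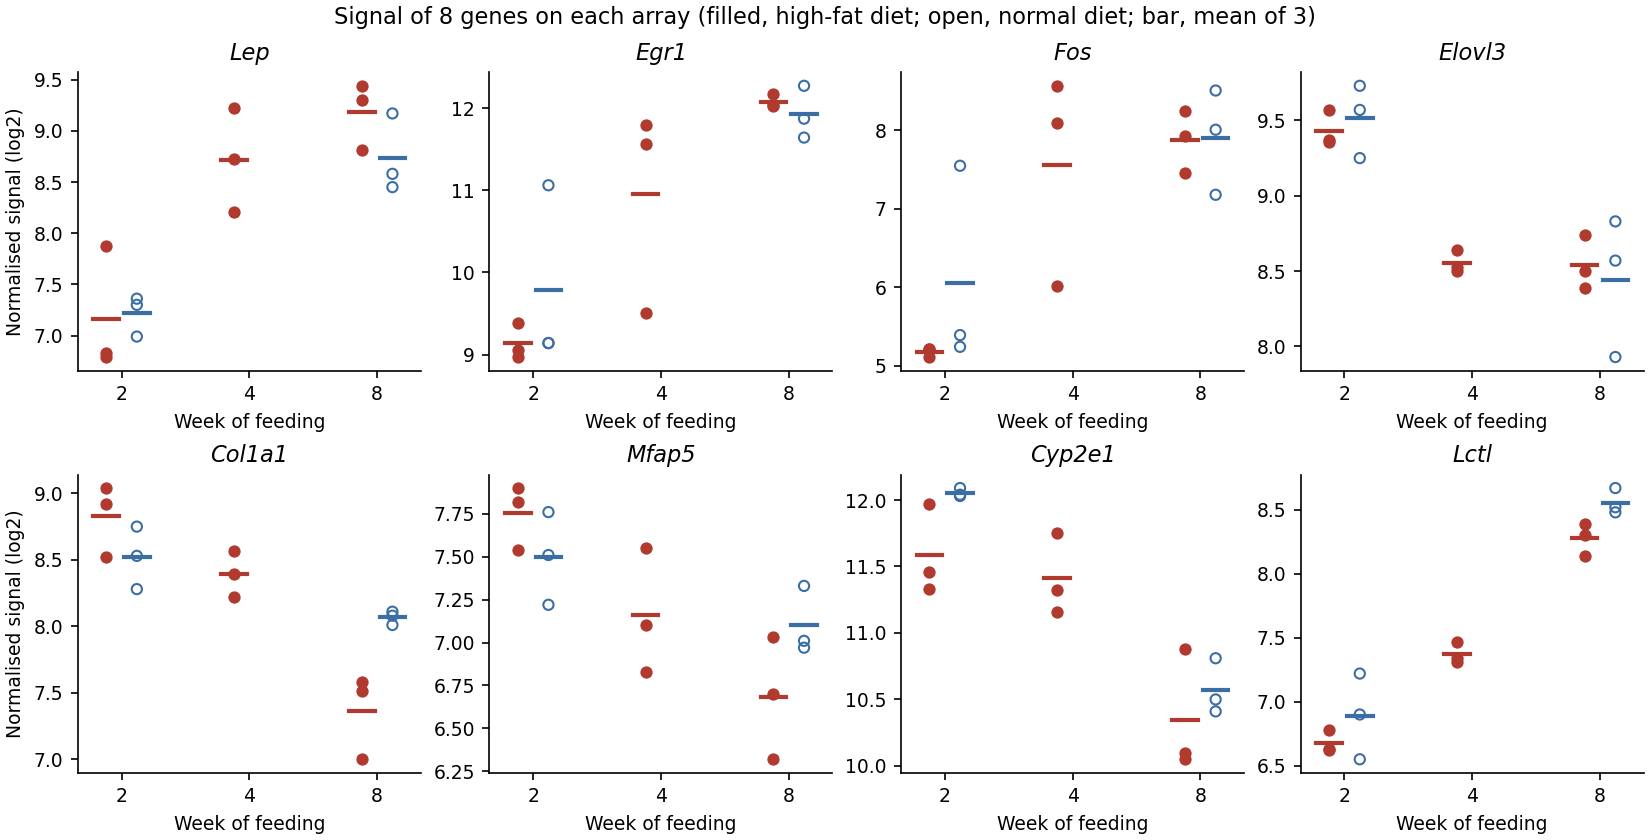
Log2 intensity of 8 genes on each array, with filled points for the high-fat diet at weeks 2, 4 and 8, open points for the normal diet at weeks 2 and 8, and bars at the mean of 3 arrays. Lep rises from 6.79 to 7.87 at week 2 to 8.81 to 9.44 at week 8 on the high-fat diet, Elovl3 falls already by week 4, and Col1a1 and Cyp2e1 fall by week 8.

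Immediate early genes are switched on within minutes of a stimulus and need no new protein for it. Of 13 measured, 5 were higher at week 8 (5.55% of all genes were) and none fell, with a median difference of 0.57. Egr1, a zinc finger transcription factor, was at 9.38, 9.06 and 8.97 at week 2, at 9.5, 11.56 and 11.79 at week 4 and at 12.17, 12.02 and 12.04 at week 8. The week 8 arrays lay close together and above all others, while week 4 replicate 1 stood near week 2 and its other two arrays near week 8. The week 8 level was 7.66-fold higher (log2 difference 2.94, SE 0.52, adjusted p = 0.000943). Fos, a subunit of the factor AP-1, was detected on no week 2 array, at 5.21, 5.21 and 5.11, and on all later ones, at 6.02, 8.10 and 8.57 and then 7.46, 7.93 and 8.25. It was at least 3.29-fold higher at week 8 (adjusted p = 0.00379). Junb, another AP-1 subunit, rose 2.24-fold (adjusted p = 0.00498), from 8.14 to 8.40 at week 2 to 8.75, 9.70 and 9.84. Dusp1, a phosphatase that shuts off MAP kinases, rose by 1.29 log2 units (adjusted p = 0.0291), and Zfp36, which brings about decay of inflammatory mRNAs, by 0.72 (adjusted p = 0.0273). The Dusp1 call ended without week 2 replicate 2 or 3 or week 8 replicate 1 or 3 (adjusted p 0.0696 to 0.0923), and that of Zfp36 without any single array but week 8 replicate 1 (0.0555 to 0.0855). The list's 5 rises became 3 without week 2 replicate 2 or 3 or week 8 replicate 3, on the 6 arrays alone and with aligned medians, and 2 with quantile normalization over the 9 high-fat arrays. The 8 members that did not pass included Jun at 0.56 (adjusted p = 0.0874), Egr2 at 0.57 (adjusted p = 0.102) and Klf4, the only member with a negative difference, at -0.36 (adjusted p = 0.355). Both Egr1 and Fos were uneven at week 2 of the normal diet too. Egr1 was at 9.14, 11.06 and 9.14 at week 2, and Fos at 5.24, 7.55 and 5.39, with replicate 2 high in both.

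Promoters of 4 of the 5 risen genes are shown because these genes were called in the same direction. That of Egr1 was not used here. They are the 250 bases before the RefSeq start, 5′ to 3′ on the gene's strand (GRCm38.p6), with TGACG, the core of the site bound by cyclic AMP response factors, in capitals on either strand (CGTCA on the other).
Fos promoter, chr12:85473640-85473889, plus strand: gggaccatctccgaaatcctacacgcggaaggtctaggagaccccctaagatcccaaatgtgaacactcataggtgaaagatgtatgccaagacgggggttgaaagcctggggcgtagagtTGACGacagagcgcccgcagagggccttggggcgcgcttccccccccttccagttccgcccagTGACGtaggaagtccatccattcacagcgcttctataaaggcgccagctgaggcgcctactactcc
Junb promoter, chr8:84978749-84978998, minus strand: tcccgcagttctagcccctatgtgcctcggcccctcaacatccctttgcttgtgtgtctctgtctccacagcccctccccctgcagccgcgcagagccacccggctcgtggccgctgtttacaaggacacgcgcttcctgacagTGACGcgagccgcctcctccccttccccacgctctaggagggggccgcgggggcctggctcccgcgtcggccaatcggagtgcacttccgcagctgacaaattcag
Dusp1 promoter, chr17:26508473-26508722, minus strand: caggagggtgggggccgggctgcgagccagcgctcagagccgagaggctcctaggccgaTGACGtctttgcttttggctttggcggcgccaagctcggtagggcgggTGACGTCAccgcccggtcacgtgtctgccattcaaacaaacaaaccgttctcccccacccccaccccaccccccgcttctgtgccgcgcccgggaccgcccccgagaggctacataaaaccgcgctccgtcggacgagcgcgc
Zfp36 promoter, chr7:28379229-28379478, minus strand: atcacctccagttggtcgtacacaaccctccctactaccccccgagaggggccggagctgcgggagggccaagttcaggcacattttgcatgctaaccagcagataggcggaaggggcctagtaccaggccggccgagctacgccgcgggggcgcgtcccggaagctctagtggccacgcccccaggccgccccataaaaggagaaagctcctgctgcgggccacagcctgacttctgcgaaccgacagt
TGACG occurred 2 times in the Fos promoter, at -129 and -66 from the start, once at -106 in that of Junb, and 3 times in that of Dusp1, where the pair at -143 and -140 overlap on opposite strands. That of Zfp36 had none, but held a CArG box, the site named for serum response factor. The other promoters shown lacked that box within their 250 bases, and bases further upstream were not searched. TGACG on either strand was present in 17.9% of 27025 promoters of that length, and a CArG box in 1.40%. These matches describe the letters only.

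Col1a1 had the lowest p of the matrix genes. Of 27 measured genes of extracellular matrix, 6 fell (5.5% of all genes did) and none rose, with a median difference of -0.18. Col1a1, the main chain of fibrillar type I collagen, was at 8.92, 8.52 and 9.04 at week 2, at 8.57, 8.22 and 8.39 at week 4 and at 7.00, 7.51 and 7.58 at week 8. The week 8 arrays lay below all others, and the level was 2.76-fold lower than at week 2 (log2 difference -1.46, SE 0.14, adjusted p = 1.55e-06). Its partner chain Col1a2 differed by -0.43 and did not pass (adjusted p = 0.205), but passed at -0.65 with aligned medians (0.0187). Col4a1, a chain of basement membrane collagen, fell by 0.36 log2 units (adjusted p = 0.00816), from 12.39 to 12.51 to 11.99 to 12.21. Loxl1, which cross-links elastin, fell by 0.58 (adjusted p = 0.0210), and Fbln1, a matrix glycoprotein, by 0.47 (adjusted p = 0.0244). The Loxl1 call ended without week 2 replicate 1 or 3 or week 8 replicate 1 (adjusted p 0.0638 to 0.138), and that of Fbln1 without those or week 8 replicate 3 (0.0581 to 0.103). The 6 falls became 2 without week 2 replicate 1, week 2 replicate 3 or week 8 replicate 1. They became 1 on the 6 arrays alone or with quantile normalization over the 9 high-fat arrays, and 15 with aligned medians, where the list's median was -0.42.

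Among 13 measured fibroblast and preadipocyte genes, 3 fell (5.5% of all genes did) and none rose, with a median difference of -0.31. Mfap5, a microfibril protein of adventitial fibroblasts, was at 7.54, 7.82 and 7.90 at week 2, at 7.55, 6.83 and 7.10 at week 4 and at 6.32, 7.03 and 6.70 at week 8. The week 8 arrays lay below those of week 2 and overlapped those of week 4, and the level fell 2.10-fold (log2 difference -1.07, SE 0.20, adjusted p = 0.00144). Pi16, which marks a pool of fibroblast progenitors, fell by 0.57 (adjusted p = 0.0253), a call that ended without week 2 replicate 1 or 3 or week 8 replicate 1 (adjusted p 0.0800 to 0.118). Cd34 also passed (adjusted p = 0.0317), but was detected on none of the 6 arrays, so its difference has no level behind it. It lost its call without week 2 replicate 1 or 2 or week 8 replicate 2 or 3 (0.0929 to 0.117). The list's 3 falls became 1 without week 2 replicate 1 or with quantile normalization over the 9 high-fat arrays, 0 on the 6 arrays alone and 7 with aligned medians. Pdgfra, the receptor that defines these cells, differed by -0.11 (adjusted p = 0.671).

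Of 21 measured endothelial genes, 3 fell (5.5% of all genes did) and none rose, and the median difference was 0.01. Ramp2, the partner of the receptor for the vascular peptide adrenomedullin, was at 11.07, 11.03 and 11.11 at week 2, at 10.82, 10.67 and 10.51 at week 4 and at 9.94, 10.57 and 10.50 at week 8. Every later array lay below week 2, and the level fell 1.66-fold by week 8 (adjusted p = 0.00164). Sox18, a transcription factor of vessels and lymphatics, fell by 0.37 (adjusted p = 0.0195), and Tie1, an endothelial receptor kinase, by 0.52 (adjusted p = 0.0209). The Sox18 call ended without week 2 replicate 1 or 3 or week 8 replicate 3 (adjusted p 0.0516 to 0.0653), and that of Tie1 without week 2 replicate 1 or week 8 replicate 1 or 3 (0.0527 to 0.114). The list's 3 falls became 1 without week 2 replicate 1 or week 8 replicate 3, 0 on the 6 arrays alone or with quantile normalization over the 9 high-fat arrays, and 7 with aligned medians. None of 10 measured pericyte and smooth muscle genes passed.

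Of 25 measured genes of xenobiotic metabolism 2 rose and 3 fell, with a median difference of -0.13. Over all genes 5.55% rose and 5.5% fell. There was no rise on the 6 arrays alone, with aligned medians or 75th percentiles, with quantile normalization over the 9 high-fat arrays, or without week 2 replicate 1 or 2 or week 8 replicate 3, and with aligned medians 10 fell. Cyp2e1, a cytochrome that oxidises ethanol and ketones, was at 11.97, 11.33 and 11.46 at week 2, at 11.32, 11.16 and 11.75 at week 4 and at 10.10, 10.05 and 10.88 at week 8. The fall came after week 4, whose arrays overlapped those of week 2, and the level was 2.37-fold lower at week 8 (adjusted p = 0.000874). Cyp2b10, a cytochrome induced through the nuclear receptor CAR in liver, fell by 1.45 log2 units (adjusted p = 0.0299), from 9.72 to 10.22 to 8.31 to 8.67. That call ended without any single array but week 8 replicate 3 (adjusted p 0.0519 to 0.0947). Its relative Cyp2b23 was detected on all 3 week 2 arrays and on none at week 8, and was at least 1.33-fold lower (adjusted p = 0.00559). The 2 genes are near relatives, so their values as separate measurements are uncertain. Gstm2, a glutathione transferase, rose by 0.31 (adjusted p = 0.0337), and Aldh1a7, an aldehyde dehydrogenase, by 0.43 (adjusted p = 0.0403). Gstm2 lost its call without week 2 replicate 1 or 2 or week 8 replicate 2 or 3 (adjusted p 0.0851 to 0.114), and Aldh1a7 without week 2 replicate 1 or 2 or week 8 replicate 1 or 3 (0.0644 to 0.210).

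Mfsd2a, the membrane carrier that takes up lysophosphatidylcholine bearing long-chain fatty acids, was among the largest falls. It was at 8.24, 7.70 and 8.24 at week 2, at 6.36, 6.97 and 6.03 at week 4 and at 4.86, 5.34 and 4.62 at week 8. The 3 weeks did not overlap, and no week 8 array detected it, so it was at least 3.74-fold lower (adjusted p = 0.00397). Hmox1, haem oxygenase 1, which breaks down haem, was detected on 2 week 2 arrays and on none after, at least 1.26-fold lower at week 8 (adjusted p = 0.00129).

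In fatty acid synthesis 2 of 20 measured genes fell and none rose, near the share of all genes called. Pgd, an enzyme of the pentose phosphate pathway that makes NADPH, was at 6.28, 6.23 and 5.79 at week 2 and at 5.38, 5.08 and 4.77 at week 8, when no array detected it (adjusted p = 0.00333), and the bound on its fold was under 1. Aacs, which activates acetoacetate for lipid synthesis, fell by 0.42 (adjusted p = 0.0051). Fasn, fatty acid synthase, differed by -0.45 without passing (95% interval -0.79 to -0.11, adjusted p = 0.0758), and Scd1, the desaturase that makes monounsaturated fatty acids, by 0.07 (95% interval -0.06 to 0.19, adjusted p = 0.509). Fasn passed after aligning the array medians (-0.73, adjusted p = 0.00428) or their 75th percentiles (-0.50, 0.0489) and without week 8 replicate 1 (-0.58, 0.0445). The Scd1 difference was -0.02 after aligning the array medians, and 0.30 and called with cyclic loess (adjusted p = 0.0353).

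In cholesterol synthesis and uptake 1 of 17 measured genes rose and 1 fell, near the share of all genes called. Insig1, which holds back the activation of sterol-responsive transcription, rose by 0.58 (adjusted p = 0.0336), from 10.23 to 10.43 to 10.88 to 11.02. Fdps, which makes farnesyl diphosphate, fell by 0.35 (adjusted p = 0.0299). The Insig1 call ended without any single array but week 8 replicate 2 (adjusted p 0.0549 to 0.114), and that of Fdps without week 2 replicate 2 (-0.23, adjusted p = 0.189) or week 8 replicate 1 (-0.23, adjusted p = 0.168). Sqle, which commits squalene to sterols, differed by 0.04 (adjusted p = 0.871), while a second Sqle probe differed by 0.87, so its probes disagreed. The mean of its probes rose (0.46, adjusted p = 0.0369). The Sqle sign turned after aligning the array medians (-0.21).

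Of 28 measured genes of fatty acid uptake and oxidation 2 fell (5.5% of all genes did) and none rose. Acot1, which frees fatty acids from coenzyme A, was at 12.62, 12.64 and 12.47 at week 2 and at 11.89, 11.74 and 12.17 at week 8, without overlap, a fall of 0.64 log2 units (adjusted p = 0.0126). Ucp3, a relative of Ucp1 in muscle and brown fat, fell by 0.51 (adjusted p = 0.0260), a call that ended without week 2 replicate 2 or 3 or week 8 replicate 3 (adjusted p 0.0539 to 0.123). Plin2, a lipid droplet coat protein, was the only one of 20 lipolysis and lipid droplet genes called, with a fall of 0.38 (adjusted p = 0.0447). Its call ended without week 2 replicate 1 or 2 or week 8 replicate 2 or 3 (0.114 to 0.137). Fabp3, a fatty acid carrier of oxidative tissue, differed by 0.03 (adjusted p = 0.837), at -0.23 after aligning the array medians.

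Of 29 measured genes of oxidative phosphorylation 2 fell (5.5% of all genes did) and none rose, with a median difference of -0.06. Cox6c, a subunit of cytochrome c oxidase, was at 13.77, 13.84 and 13.88 at week 2, at 13.81, 13.90 and 13.91 at week 4 and at 13.46, 13.00 and 13.40 at week 8, below all earlier arrays (log2 difference -0.55, adjusted p = 0.0149). The call ended without week 2 replicate 3 or week 8 replicate 2 (adjusted p 0.0538 to 0.0655). Ndufa1, a subunit of complex I, fell by 0.31 (adjusted p = 0.0454), a call that did not outlast the loss of any single array (0.0546 to 0.148). Ogdh, a subunit of the 2-oxoglutarate dehydrogenase of the tricarboxylic acid cycle, rose by 0.29 (adjusted p = 0.0186), the only call among 15 genes of that cycle. It ended without week 2 replicate 3 or week 8 replicate 1 (0.0530 to 0.0541), and its difference was -0.01 after aligning the array medians.

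Single falls were found in the lists of sugar and insulin genes. Ldhb, a subunit of lactate dehydrogenase, was at 6.97, 6.89 and 7.21 at week 2 and at 6.45, 5.59 and 5.90 at week 8, detected there on 1 array (log2 difference -1.04, adjusted p = 0.00194, the only call among 14 glycolysis and glucose uptake genes). Irs1, the docking protein of the insulin receptor, fell by 0.58 (adjusted p = 0.0312), alone among 16 insulin signalling genes. Its call ended without week 2 replicate 1 or 3 or week 8 replicate 2 or 3 (adjusted p 0.05 to 0.132). Of 13 genes that break down branched-chain amino acids 2 fell, where 5.5% of all genes did. They were Bckdhb, a subunit of the branched-chain keto acid dehydrogenase, by 0.68 (adjusted p = 0.0102), and Bcat2, the mitochondrial transaminase that starts the pathway, by 0.51 (adjusted p = 0.0398). Bcat2 lost its call without week 2 replicate 1 or 3 or week 8 replicate 1 (0.0731 to 0.306), and without week 8 replicate 1, at 9.64 against 10.53 and 10.53, its difference was -0.22.

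Of 9 measured genes of creatine and calcium cycling, which can burn ATP without Ucp1, 2 rose and 2 fell. Over all genes 5.55% rose and 5.5% fell. Alpl, the phosphatase proposed to split phosphocreatine in thermogenic mitochondria, was at 8.28, 8.21 and 8.27 at week 2, at 7.78, 7.78 and 8.00 at week 4 and at 7.62, 7.79 and 7.85 at week 8. All later arrays lay below week 2, and the fall was 0.50 log2 units (adjusted p = 0.00782). Ckb, a creatine kinase, fell by 0.43 (adjusted p = 0.0209), Gamt, which makes creatine, rose by 0.76 (adjusted p = 0.0185), and Ryr2, a calcium release channel, was detected on 2 week 8 arrays and no week 2 array, at least 1.25-fold higher (adjusted p = 0.0196). Ckb lost its call without week 2 replicate 1 or 3 or week 8 replicate 1 or 2 (adjusted p 0.0529 to 0.0858), Gamt without week 2 replicate 2 or 3 or week 8 replicate 2 (0.0707 to 0.0961), and Ryr2 without week 2 replicate 2 or 3 or week 8 replicate 1 (0.0711 to 0.132).

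No immune cell marker measured passed as higher. Of 18 measured resident macrophage genes 1 fell and none rose, with a median difference of -0.11, and of 11 genes of lipid-associated macrophages 2 fell and none rose, with a median of -0.25. Over all genes 5.5% fell. Tyrobp, a signalling adaptor of myeloid cells, differed by -0.78 (adjusted p = 0.0334), and lost its call without week 2 replicate 1 or 3 or week 8 replicate 2 (adjusted p 0.0790 to 0.190), with a difference of -0.49 without the last. Ctsd, a lysosomal protease, was at 6.71, 6.85 and 6.67 at week 2 and at 6.16, 5.72 and 5.86 at week 8, detected there on 1 array (log2 difference -0.83, adjusted p = 0.00392). Cd63, a lysosomal membrane protein, fell by 0.41 (adjusted p = 0.0318), a call that ended without week 2 replicate 1 or 3 or week 8 replicate 1 (0.0795 to 0.236), with a difference of -0.18 without the last. C1qa, a complement subunit made by macrophages, differed by -0.35 and did not pass (adjusted p = 0.0795), but passed with aligned medians (-0.57, adjusted p = 0.00344) and without week 8 replicate 2 (-0.46, 0.0244).

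Of 21 measured interferon response genes 2 fell (5.5% of all genes did) and none rose. Isg15, a ubiquitin-like protein induced by interferon, was at 7.75, 7.94 and 7.73 at week 2, at 7.58, 7.61 and 7.58 at week 4 and at 6.59, 7.33 and 6.98 at week 8, below all earlier arrays, a 1.79-fold fall (adjusted p = 0.00200). Ifi27, near the top of the intensity range, fell by 0.18 (adjusted p = 0.0497), and lost its call without any week 2 array or week 8 replicate 2 (adjusted p 0.0872 to 0.160). Igtp, an interferon-induced GTPase, differed by -0.05 (adjusted p = 0.946), and spread from 9.65 to 12.21 over the 3 week 4 arrays. Hdc, which makes histamine, was the only one of 5 mast cell genes called, and fell from 11.38, 11.43 and 11.33 to 10.49, 10.78 and 10.70 (log2 difference -0.72, adjusted p = 0.000359). None of 7 MHC class II, 14 MHC class I and immunoproteasome, 6 lymphocyte and 3 neutrophil genes passed. All 7 MHC class II genes stood higher than at week 2, with a median difference of 0.31 at week 4 and 0.27 at week 8. Their mean on each array overlapped, at 8.98 to 9.34 at week 2 and 9.16 to 9.77 at week 8. The other lists had week 8 medians of -0.04, -0.06 and -0.44 in that order.

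Further large changes fell outside these lists. Lctl, a protein related to lactase, was at 6.63, 6.62 and 6.78 at week 2, at 7.34, 7.47 and 7.31 at week 4 and at 8.14, 8.30 and 8.39 at week 8. The 3 weeks did not overlap, and the level rose 3.04-fold (log2 difference 1.60, SE 0.18, adjusted p = 4.21e-06). Nup210, a protein of the nuclear pore, was at 6.79 to 6.96 at week 2, at 6.82 to 6.97 at week 4 and at 8.47, 7.85 and 7.83 at week 8, a 2.28-fold rise that came after week 4 (adjusted p = 4.54e-05). Cdsn, the epidermal adhesion protein corneodesmosin, rose 2.72-fold (adjusted p = 7.93e-05), from 6.24, 5.58 and 6.20 to 7.05, 7.66 and 7.64. Its other two probes differed by 0.50 and 0.30. Gldn, which encodes gliomedin of nodes of Ranvier, rose by 1.03 log2 units (adjusted p = 0.00379), and Sucnr1, the receptor for succinate, by 1.17 (adjusted p = 0.00419), from 1 of 3 arrays detected to 3 of 3. Slc6a13, a transporter of GABA and taurine, rose by 1.10 (adjusted p = 0.0200), a call that ended without week 2 replicate 2 or 3 (adjusted p 0.0709 to 0.0847). Of the rises, 3 started from no detected week 2 array: Apold1 of vessel walls was at least 1.5-fold higher (adjusted p = 0.0338), the odorant receptor gene Olfr786 at least 1.34-fold (0.000146) and the antitrypsin gene Serpina1b at least 1.41-fold (0.0424). Apold1 lost its call without week 2 replicate 1 or 3 or week 8 replicate 1 or 2 (0.0631 to 0.163), and Serpina1b without any single array (0.0551 to 0.129).

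Among the falls, Bmx, a tyrosine kinase of endothelium and bone marrow, was at 8.23, 8.14 and 8.11 at week 2, at 6.58, 6.72 and 7.20 at week 4 and at 7.03, 6.39 and 5.91 at week 8. All later arrays lay below week 2, and the log2 difference was -1.72 (SE 0.21, adjusted p = 1.45e-05). Pde8b, a phosphodiesterase that degrades cyclic AMP, was at 7.58, 6.77 and 7.22 at week 2 and at 6.04, 5.48 and 5.63 at week 8 (difference -1.47, adjusted p = 1.08e-05), detected on 1 of the 3 later arrays. A further group was detected on no week 8 array and so is known only by a bound. Rfx4, a transcription factor, was at least 1.7-fold lower (adjusted p = 2.46e-05), Dhx9, an RNA helicase, at least 1.74-fold (0.00141), and Fam131b at least 1.47-fold (0.000235). Sez6l was at least 1.23-fold lower (adjusted p = 2.46e-05), Igdcc4 at least 1.22-fold (5.76e-05) and the odorant receptor gene Olfr873 at least 1.12-fold (9.08e-06). The second Igdcc4 probe differed by -0.17. Mup2, a pheromone carrier of a family of near-identical genes, was at least 1.97-fold lower (0.00559), but its other two probes differed by -0.49 and -0.10, and the mean of its probes did not pass (-0.82, adjusted p = 0.113).

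Among stress genes, Dnajb1, a heat shock co-chaperone, rose from 10.68, 10.60 and 10.45 to 11, 11.64 and 11.13 (log2 difference 0.68, adjusted p = 0.00644, against 0.41 and 0.0629 with aligned medians), and Calr, a calcium-binding chaperone of the endoplasmic reticulum, fell by 0.71 (adjusted p = 0.0323). In the heat shock and unfolded protein list, 2 of 19 measured genes rose and 1 fell, and in the integrated stress response list 2 of 14 rose, Slc7a11 and Ddit3. Over all genes 11.1% were called. Ddit3, a transcription factor of that response, rose by 0.53 (adjusted p = 0.0212) and stands in both lists, and Slc7a11, the cystine importer that feeds glutathione synthesis, rose by 0.69 (adjusted p = 0.0178). Calr lost its call without week 2 replicate 1 or 3 or week 8 replicate 1 (adjusted p 0.0530 to 0.261), Ddit3 without week 2 replicate 2 or 3 or week 8 replicate 2 (0.0637 to 0.114), and Slc7a11 without week 2 replicate 3 or week 8 replicate 2 or 3 (0.0509 to 0.130). Without week 8 replicate 1 the Calr difference was -0.29, and without week 8 replicate 2 that of Ddit3 was 0.32. Hlf, a clock-controlled transcription factor, was at least 1.14-fold higher (adjusted p = 0.00203), the only call among 17 clock genes, and Nr1d1, a repressor within the clock, differed by -0.25 (adjusted p = 0.466).

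Of 17 genes induced by glucocorticoids 1 rose, Dusp1, and 2 fell. Over all genes 5.55% rose and 5.5% fell, the shares to set beside this list and those that follow. Mt1, a metal-binding metallothionein, fell by 0.45 (adjusted p = 0.0113), and Zbtb16, a transcription factor, by 0.65 (adjusted p = 0.0458). Mt1 lost its call without week 8 replicate 1 (adjusted p = 0.0714), and Zbtb16 without any single array but week 8 replicate 3 (0.0635 to 0.138). In the cell cycle list 2 of 19 genes rose and 1 fell: Ccnd1, cyclin D1, rose by 0.60 (adjusted p = 0.0393), Tubb5, a tubulin, by 0.30 (adjusted p = 0.0480), and Hmgb2, a chromatin protein, fell by 0.86 (adjusted p = 0.0126). Ccnd1 lost its call without any single array but week 8 replicate 1 (0.0551 to 0.141), Tubb5 without any but week 8 replicate 3 (0.0661 to 0.173), and Hmgb2 without week 2 replicate 1 or week 8 replicate 3 (0.0513 to 0.0729). Of 13 ribosomal protein genes Rpl3 rose by 0.27 (adjusted p = 0.0171) and Rplp2 fell by 0.45 (adjusted p = 0.00144). Rpl3 lost its call without week 2 replicate 2 (0.0913), and its difference was -0.05 after aligning the array medians. Psmb6 fell by 0.29 (adjusted p = 0.0307), alone among 23 proteasome genes, and lost its call without week 2 replicate 1 or 3 or week 8 replicate 1 (0.0728 to 0.193), with a difference of -0.14 without the last. Slc4a1, the anion exchanger of red blood cells, passed as higher (adjusted p = 0.0268), from 5.16, 5.19 and 4.77 with none detected to 6.19, 5.47 and 6.53 with 2 detected, and lost its call without week 2 replicate 1 or 3 or week 8 replicate 1 or 3 (0.0516 to 0.110). None of 22 mitochondrial ribosome, 5 Schwann cell and 2 epidermal genes passed.

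**Figure D4:**
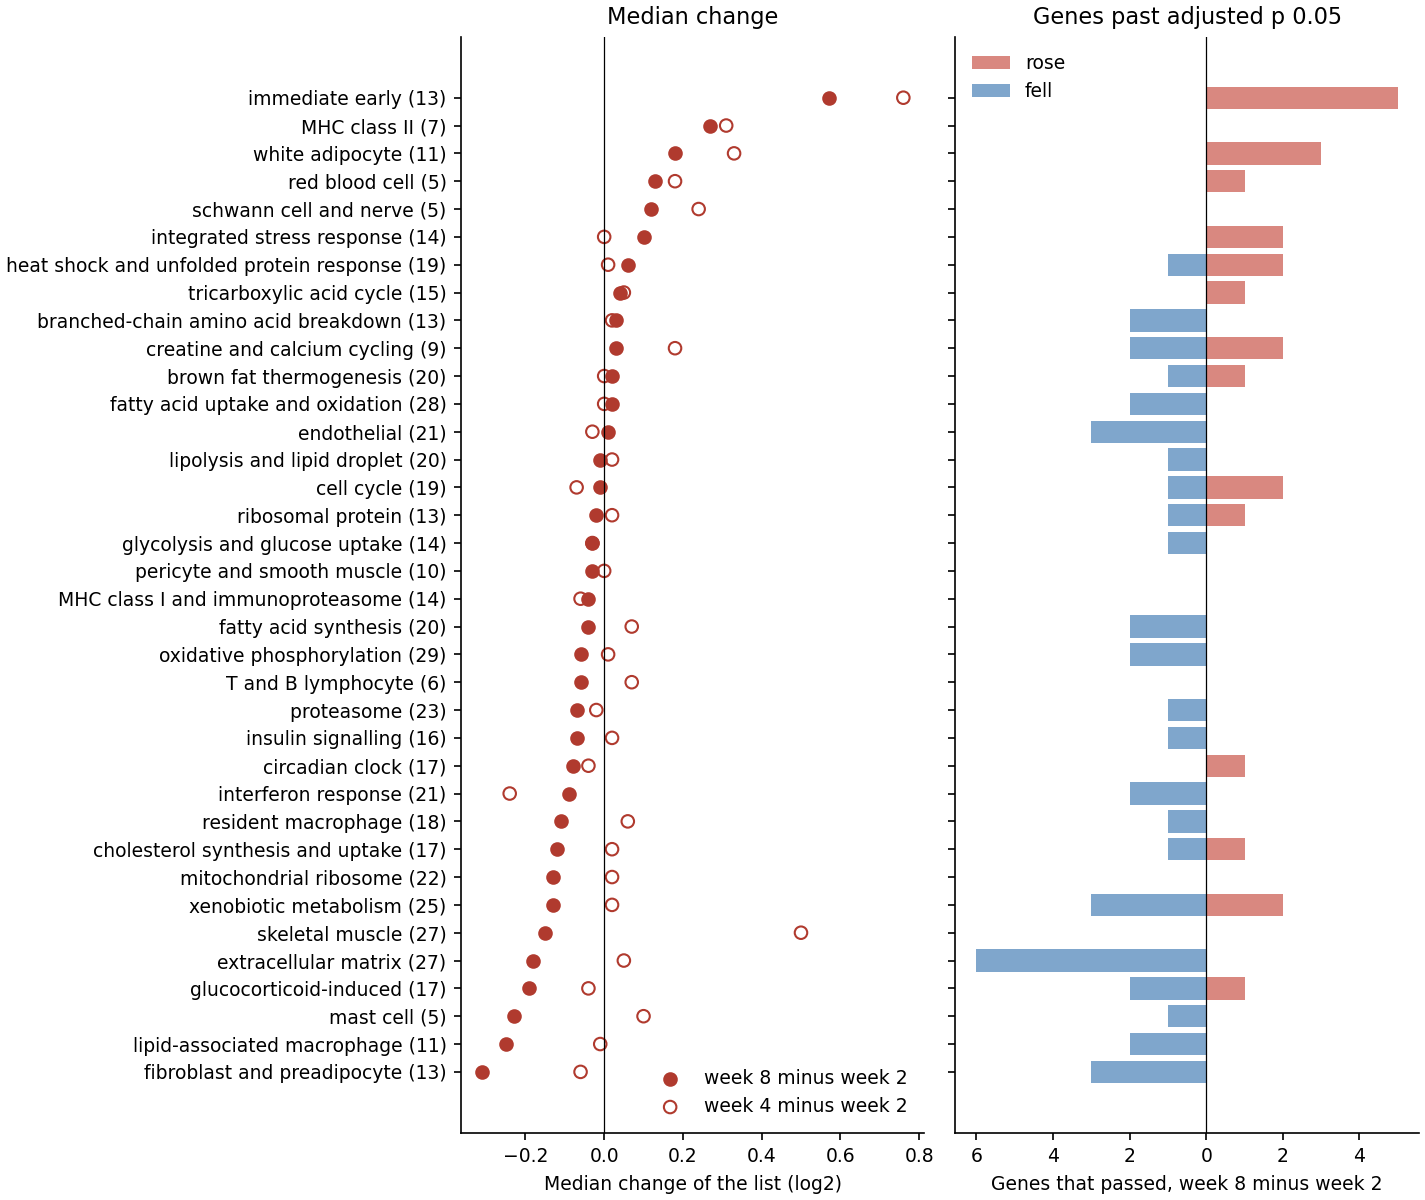
Median log2 difference of the measured genes of each list with at least 5 of them, filled for week 8 minus week 2 and open for week 4 minus week 2, with the number that passed each way. The immediate early list has the highest week 8 median, 0.57 with 5 rises, and the fibroblast and preadipocyte list the lowest, -0.31 with 3 falls.

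Week 4 shows when these differences appeared. Week 4 against week 2 gave 74 calls (0.77% of genes), 22 higher (0.229%) and 52 lower (0.541%). Week 8 against week 4 gave 382 (3.97%), 203 higher (2.11%) and 179 lower (1.86%). The 3 comparisons share arrays, so their values are set side by side. Fitted on the compared arrays alone, 1 and 0 genes passed, neither count including a gene named here. Quantile normalization over the 9 high-fat arrays gave 9 and 0, and of the genes named for weeks 4 and 2 it kept Elovl3, Pde8b and Rfx4. With aligned medians Elovl3 lost its week 4 call (-0.80, adjusted p = 0.0642). Cacna2d1 lost its call under both of these scalings and with cyclic loess, and with aligned 75th percentiles so did Fos at week 4 and Klf15 between weeks 4 and 8 (adjusted p 0.0520 to 0.0692). The count for weeks 2 to 4 fell to 25 or 22 without week 2 replicate 2 or 3 and to 42, 44 or 20 without week 4 replicate 1, 2 or 3, and that for weeks 4 to 8 to 181, 168 or 87 without week 4 replicate 1, 2 or 3, while it rose to 703 without week 8 replicate 2.

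By week 4, Elovl3 had fallen by 0.87 log2 units (adjusted p = 0.00524) and Lep had risen by 1.55 (adjusted p = 0.00612). Cdsn had risen by 1.27 (adjusted p = 0.00156), Fos was at least 2.64-fold higher (0.0475), and Zfp36 was higher by 0.91 (0.0402). Cd83, a surface protein of dendritic cells, passed as higher (adjusted p = 0.00219), from 4.79, 4.80 and 5.07 with none detected to 5.86, 6.46 and 6.07 with 2 detected, and Cacna2d1, a calcium channel subunit, rose by 1.06 (0.05). Egr1, at a difference of 1.81, did not pass (adjusted p = 0.123), with week 4 replicate 1 at the week 2 level, and passed at 2.54 without that array (0.0152). Bmx fell by 1.33 (adjusted p = 0.00138) and Plxnc1, a semaphorin receptor, by 1.36 (0.00171). Detected on no week 4 array, Rfx4 was at least 1.91-fold lower (adjusted p = 0.00138), Pde8b at least 2.3-fold (8.80e-05) and Igdcc4 at least 1.38-fold (0.00138). Of these calls, those of Lep (without week 2 replicate 2 or 3 or week 4 replicate 3, adjusted p 0.0650 to 0.0808), Fos (all but week 4 replicate 1, 0.0952 to 0.304), Zfp36 (the same arrays, 0.0701 to 0.175) and Cacna2d1 (any array, 0.0695 to 0.248) ended without a single array.

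Between weeks 4 and 8, Col1a1 fell by 1.03 (adjusted p = 0.000545) and Cyp2e1 by 1.07 (0.00921), while Nup210 rose by 1.13 (0.000545) and Lctl by 0.90 (0.00751). Detected on no week 4 array, Mzf1, a zinc finger factor, was at least 1.28-fold higher (adjusted p = 0.000203), Tmem184a at least 1.18-fold (0.000777) and Lbx2, a homeobox gene, at least 1.34-fold (0.00536). Exosc2, a subunit of the RNA exosome, fell by 1.55 (adjusted p = 0.00402), although its other probe differed by -0.14 between weeks 2 and 8. Klf15, a transcription factor of fasting metabolism, passed as lower (adjusted p = 0.0104), from 6.19, 5.28 and 6.00 with 1 array detected to 4.76, 4.70 and 4.47 with none. The other large falls were genes of skeletal muscle. Tnnc1, troponin C of slow muscle, was at 8.26, 9.05 and 10.24 at week 2, at 10.02, 10.03 and 10.99 at week 4 and at 7.52, 8.31 and 8.18 at week 8, a fall of 2.34 from week 4 (adjusted p = 0.0268) that was -1.18 and not called from week 2 (0.198). Myl3, a slow myosin light chain, fell by 1.98 (adjusted p = 0.0343), and Myoz2, of the sarcomere's Z disc, was at least 1.76-fold lower (0.0120). Cyp2e1 and Myoz2 lost their calls without week 4 replicate 3 (adjusted p = 0.0657 and 0.0667), Klf15 without week 4 replicate 1 or 3 (0.0556 to 0.0582), Tnnc1 without week 4 replicate 2 or 3 or week 8 replicate 1 (0.0509 to 0.128) and Myl3 without any week 4 array or week 8 replicate 1 (0.0506 to 0.148).

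The muscle signal varied within weeks, and it was higher at week 4 than at week 8. The mean of 27 measured skeletal muscle genes was 9.51, 9.86 and 10.64 at week 2, 10.33, 10.39 and 10.84 at week 4 and 9.52, 9.82 and 10.11 at week 8. Every week 4 array lay above every week 8 array, while week 2 overlapped both. At week 4, 26 of the 27 stood higher than at week 2 (median difference 0.50). At week 8, 1 of the 27 stood higher than at week 4 (median difference -0.67). None passed between weeks 2 and 8, where the median difference was -0.15 and Acta1, skeletal actin, differed by -0.21 (adjusted p = 0.803). With the muscle mean as a covariate, 1017 genes passed between weeks 2 and 8, 41 between weeks 2 and 4, and 232 between weeks 4 and 8. Epdr1, a secreted protein studied in brown fat, differed by -0.04 (adjusted p = 0.941), and by 0.03 with that covariate.

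The normal diet tells how much of the week 8 difference is seen without extra fat. Weeks 8 and 2 on that diet share no array with the high-fat comparison, and 591 genes passed there (6.15%), 325 higher (3.38%) and 266 lower (2.77%). Of the 1063 high-fat calls, 937 (88.1%) had the same sign on the normal diet, against 67.4% of all 9613 genes. Over all genes the 2 sets of differences had a Pearson r of 0.52, a description across genes, which are not independent replicates. Passing on both diets with the same sign were 215 genes, 20.2% of the high-fat calls and 36.4% of the normal diet calls, 100 higher and 115 lower, and 2 passed with opposite signs. Among the high-fat calls, the median ratio of the normal diet difference to the high-fat difference was 0.48. These genes were chosen by their high-fat values, so the shares and the ratio are descriptions.

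No gene passed the test that its change differs between the diets (0% of 9613 in limma), while 931 had an unadjusted p under 0.05 and 317 of those were high-fat calls. High-fat calls were 11.1% of all genes. Both tests use the same high-fat arrays, so the overlap of 317 is partly built in. After aligning only the array medians 733 genes passed the test between diets (3 higher, 730 lower). With array weights 56 passed, and without the high-fat week 8 replicate 2 the count was 16. The lowest p belonged to Col1a1, which differed by -0.45 on the normal diet (adjusted p = 0.0616) against -1.46 on the high-fat diet. In limma the difference of those differences was -1.01 (SE 0.20, adjusted p = 0.0822), and it passed without high-fat week 2 replicate 2 (adjusted p = 0.0454) or week 8 replicate 2 (0.0420). Col1a1 on the normal diet was at 8.53, 8.28 and 8.75 at week 2 and at 8.01, 8.11 and 8.08 at week 8, all above the 3 high-fat week 8 arrays. Next came Dhx9 and Sez6l (adjusted p = 0.115 for both, neither detected on a high-fat week 8 array), Mlxipl, a glucose-sensing transcription factor (-0.54, 0.130), and Rplp2 (-0.48, 0.130). With aligned medians these 5 genes and Cyp2b10 passed (adjusted p 0.0019 to 0.0488).

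Several of the largest high-fat changes were also called on the normal diet. Lctl rose by 1.67 on the normal diet (adjusted p = 3.75e-06), Cdsn by 1.38 (0.000148), Nup210 by 1.15 (8.03e-05), Lep by 1.52 (0.00181) and Egr1 by 2.14 (0.0132). Elovl3 fell by 1.07 there (adjusted p = 0.000148), Cyp2e1 by 1.48 (0.000148) and Bmx by 1.15 (0.00139). Mfsd2a differed by -3.61 (adjusted p = 0.00138). The difference between the diets was 0.50 for Lep, 0.79 for Egr1 and 0.18 for Elovl3, and did not pass for any of them (adjusted p = 0.719, 0.759 and 0.831). Cyp2b10 fell by 3.63 on the normal diet (adjusted p = 1.84e-05), with a difference between the diets of 2.18 (SE 0.61, adjusted p = 0.231). Hmox1 was detected on no normal diet array of either week. Isg15 differed by -0.21 on the normal diet (adjusted p = 0.509) and Cox6c by 0.03 (0.935). Their differences between the diets, -0.64 and -0.58, did not pass (adjusted p = 0.394 and 0.361). The lists follow with the number of measured genes in brackets. Over all genes 3.38% rose and 2.77% fell on the normal diet, against 5.55% and 5.5% on the high-fat diet. Immediate early genes (13) had 6 rises on the normal diet with a median of 0.89, against 5 and 0.57 on the high-fat diet. White adipocyte genes (11) had 4 rises with a median of 0.19, against 3 and 0.18. MHC class II genes (7) had 1 rise there with a median of 0.52, against none and 0.27. Endothelial genes (21) had 3 falls on each diet, and xenobiotic genes (25) 2 rises and 5 falls on the normal diet. Matrix genes (27) had 2 falls there and fibroblast genes (13) no call, with medians of -0.07 and -0.11. Glucocorticoid-induced genes (17) had 7 falls on the normal diet with a median of -0.54, against -0.19 on the high-fat diet. Resident macrophage genes (18) had 6 rises and 1 fall there with a median of 0.36, against -0.11. Skeletal muscle genes (27) had 4 rises with a median of 1.07, against -0.15. The muscle mean on the normal diet was 8.63, 9.31 and 9.27 at week 2 and 9.95, 10.45 and 9.71 at week 8. With that mean as a covariate in limma, no gene passed the test between diets. An unadjusted p under 0.05 was then found for 759 genes, against 931 without it. Its part in the list differences was not tested.

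**Figure D5:**
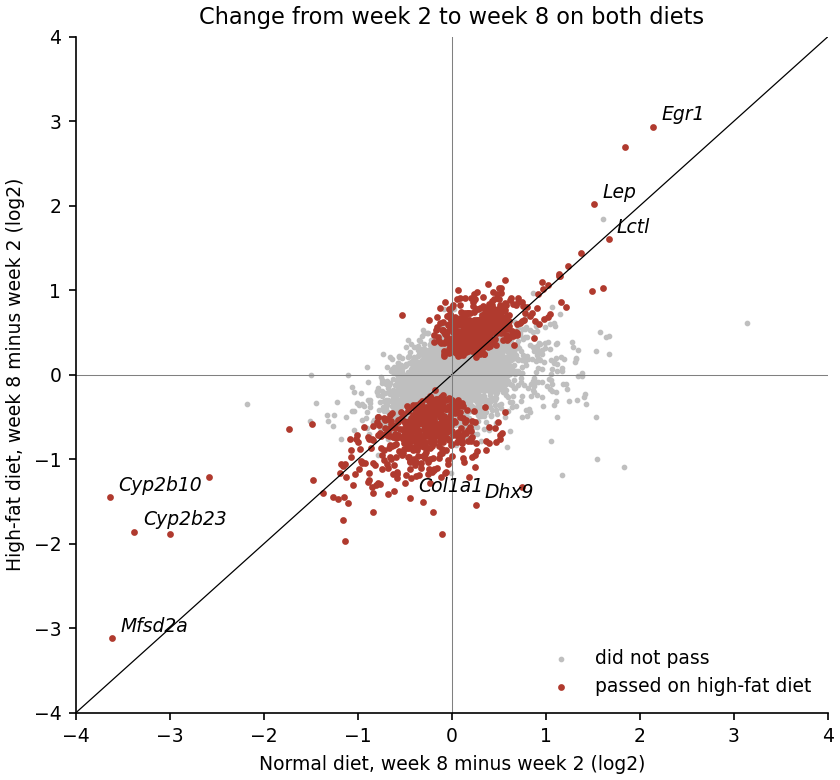
Week 8 minus week 2 difference (log2) of each gene on the normal diet (horizontal axis) and on the high-fat diet (vertical axis), with the line of equal change. The 1063 high-fat calls have the same sign on both axes in 88.1% of cases.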

How the data were processed

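Brown fat RNA was hybridised to Illumina mouse bead arrays. Per the labels, RNA was extracted with Trizol, cleaned on columns with DNase I and amplified to biotin-labelled cRNA; BeadStudio 3.1.3 is named in the submitters' processing notes. The authors deposited a table of intensity and detection p-value for 45281 probes on 33 arrays, and, separately, log2 values. The intensities were background-corrected (normexp on detection p-values, offset 16) and quantile-normalized over 33 arrays with limma 3.58.1 in R 4.3.3, then put on a log2 scale. A value counts as detected below a detection p of 0.01; probes detected on 3 or more arrays were kept. The brightest probe stood for each gene, giving 9613 genes of 19057 with a probe. Probes with 1 gene symbol numbered 34885, with several 18 and with none 10378; 34807 of the first were looked up by gene ID in the RefSeq table. lmFit with 11 group means and eBayes gave each difference, with Benjamini-Hochberg adjustment over 9613 genes. A "rose" or "fell" means an adjusted p under 0.05. Where a group had no detected array, the fold is a bound: the brighter mean over the higher, per array, of the probe's own value and the lowest detected signal.

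The members and lists (38 lists, 758 genes, 576 measured) were chosen with earlier results of these data known. Named genes are the 15 largest non-overlapping calls each way for weeks 8 and 2 and the 5 largest each way for the steps. To these come up to 4 per list by p and 16 set genes. Clone names were counted but not named. The rule for the diets, the 5 largest calls each way, named no gene because none passed. Genes are given there by lowest p instead. Col1a2, Pdgfra, Jun, Egr2, Klf4 and Aldh1a7 were named outside this rule after their values were seen. The analysis steps were tested on simulated data with the same spread in every group, which does not cover the wider scatter of high-fat week 8. Alternatives changed the background, scaling, filter, probe rule, fit and arrays.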

Additional observations from a re-analysis of the deposited data

How the results depend on the processing

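Counts of changed genes are given here in the order weeks 8 and 2 (1063), weeks 4 and 2 (74), weeks 8 and 4 (382) and the difference between diets (0), where they moved by more than 1.5 times. Aligning array medians gave 2679, 41, 3590 and 733 and aligning 75th percentiles gave 223 for weeks 8 and 4 (cyclic loess 213). Quantile normalization over 9 high-fat arrays gave 218, 9 and 0. No detection filter gave 1971 and 1144 for weeks 8 and 2 and weeks 8 and 4, and all kept probes gave 1832, 128 and 683. Array weights gave 205, 912 and 56 for the last 3 counts. The compared arrays alone gave 53, 1 and 0; at an unadjusted p under 0.05 the last of these was 1113. Leaving out the week 24 arrays gave 46 for weeks 4 and 2, and a muscle covariate gave 41 there and 232 for weeks 8 and 4. A minimum change of 1 log2 unit gave 101, 18 and 22. Requiring detection on every compared array, chosen after seeing the data, gave 687, 9 and 238. Leaving out single arrays gave 570 to 1461, 20 to 51, 87 to 703 and 0 to 16. The remaining settings stayed within 1.5 times, including the deposited log2 values (1122, 75, 408 and 0). The replicate numbers do not pair the samples (same-number correlations of -0.02, -0.01 and 0.05 for weeks 2 and 8). A replicate block gave 1024, 57, 330 and 0. Shares of higher calls moved by over 10 points also for weeks 4 and 2 (29.7% higher, 41.5% with aligned medians) and for weeks 8 and 4 (53.1%, 1.3% with aligned medians).

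The signs that turned belonged to small differences. With aligned medians they were Adipoq -0.261, Fabp3 -0.233, Ogdh -0.012, Ppargc1a -0.125, Rpl3 -0.051, Scd1 -0.016, Sqle -0.207 and the diet difference of Elovl3, -0.113, while the all-gene median stood at -0.231. With aligned 75th percentiles they were Adipoq -0.03 and Fabp3 -0.003, and with the muscle covariate Acta1 0.003 and Epdr1 0.029. Leaving out single arrays, Ucp1 ran from -0.143 to 0.016, Fabp3 from -0.027 to 0.077, Igtp from -0.102 to 0.014, Acta1 from -0.428 to 0.081, Epdr1 from -0.123 to 0.057, Sqle from -0.056 to 0.103, Adipoq from -0.027 to 0.097, Ppargc1a from -0.066 to 0.347, Pdgfra from -0.306 to 0.081 and the diet difference of Elovl3 from -0.072 to 0.378. The cause was not tested. Dim signals limit the bounds: 55 of the 83 falls over 1 log2 unit had no detected week 8 array.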
